A study of Mus musculus with 12 samples.

Results

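Promoters of long noncoding RNA (lncRNA) genes were examined for acetylation of histone H4 at lysine 12 (H4K12ac). Only those apart from the annotated 5′ ends of protein-coding genes were taken. The members were windows of 2 kb on either side of the 5′ end of autosomal genes that GENCODE, on the mouse build GRCm38 (mm10), types as lincRNA, antisense, sense intronic, bidirectional promoter lncRNA or processed transcript, provided that the window overlapped no such window of a protein-coding gene. Of 9392 lncRNA genes of these types 7295 met the rule, out of 51229 autosomal genes in all, and the other 2097 shared their window with a coding gene. The members comprised 4646 lincRNA, 1940 antisense, 420 processed transcript, 284 sense intronic and 5 bidirectional promoter genes. Because windows of neighbouring lncRNA genes overlap, they formed 7008 separate regions. Windows of 674 members still lay within 2 kb of the start of some coding transcript, other than a gene's annotated 5′ end. The other 6621 were clear of such starts.

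H4K12ac was profiled by ChIP-Seq in 5 Tip60 cKO and 5 control libraries of neuronal nuclei sorted from whole hippocampi. The labels give the mice as male C57BL/6J of 3 months. The methods of the study differ from the labels here, naming a C57BL/6 N background and animals of either sex. In Tip60 cKO mice both floxed Tip60 alleles (Tip60 f/f) were deleted by CaMKCreERT2, a tamoxifen-inducible Cre whose promoter is active in excitatory forebrain neurons after they stop dividing. Other neurons in the sort therefore kept the gene, and both genotypes received tamoxifen, with tissue taken 10 days after the last injection. Control mice were Tip60 f/f littermates without the driver, and 1 pooled input per genotype served all 5 of its libraries.

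TIP60 (KAT5) is the acetyltransferase of the NuA4 complex, and H4K12 is among the residues it acetylates. Acetylated H4 tails loosen nucleosomes and bind bromodomain proteins, and the mark gathers around the start sites of active genes. Transcripts of lncRNA genes are mostly spliced and made by RNA polymerase II, as coding transcripts are, but are often low and restricted to few cell types. Some act in the nucleus, as Malat1 and Neat1 do in nuclear speckles and paraspeckles, and others are the precursors from which microRNAs or small nucleolar RNAs are cut.

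Each library gave a list of peaks that the authors called with MACS2 against the input of its genotype. Libraries held 22864189 to 37923809 tags and 64245 to 136409 peaks, and cKO replicate 5 had both the fewest tags and the fewest peaks. Windows of 6 of 6 neuronal markers held a peak in every library, whereas at most 1 of 6 oligodendrocyte, 1 of 7 microglial, 2 of 5 astrocyte and 2 of 4 endothelial markers did in any. At most 1 of 5 inhibitory neuron markers had a peak, although the sort was for neurons. Peak lists hold no transcripts, so loss of Tip60 could not be checked in them. The labels number the replicates but name no animals, so p-values measure the spread between these libraries.

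Sequences around the 5′ ends show what kinds of promoter the marked members include. Those of Mir124a-1hg (chr14:64587081-64587380 on the plus strand), Mir9-3hg (chr7:79499776-79500075 on the plus strand) and 6720427I07Rik (chr13:48546451-48546750 on the minus strand) lead hosts of microRNAs abundant in neurons and held peaks in all 10 libraries. Malat1 (chr19:5802623-5802922 on the minus strand) also had a peak in all 10, with far fewer CpG dinucleotides. Each runs 5′ to 3′ from 250 bases before to 50 bases from the GENCODE 5′ end, read from the RefSeq GRCm38 assembly, and capitals mark CpG dinucleotides.
Mir124a-1hg: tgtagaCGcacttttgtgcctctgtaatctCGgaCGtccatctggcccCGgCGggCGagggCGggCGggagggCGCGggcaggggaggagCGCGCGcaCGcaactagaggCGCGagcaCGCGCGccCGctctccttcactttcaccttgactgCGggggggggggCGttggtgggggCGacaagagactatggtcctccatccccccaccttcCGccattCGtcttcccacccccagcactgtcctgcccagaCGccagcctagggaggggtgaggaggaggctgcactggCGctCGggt
Mir9-3hg: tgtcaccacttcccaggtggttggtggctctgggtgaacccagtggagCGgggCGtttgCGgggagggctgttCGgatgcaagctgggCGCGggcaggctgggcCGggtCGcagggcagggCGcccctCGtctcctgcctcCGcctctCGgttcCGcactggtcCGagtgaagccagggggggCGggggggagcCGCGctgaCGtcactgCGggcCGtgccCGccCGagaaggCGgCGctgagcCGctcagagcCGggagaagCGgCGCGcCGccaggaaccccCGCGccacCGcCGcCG
6720427I07Rik: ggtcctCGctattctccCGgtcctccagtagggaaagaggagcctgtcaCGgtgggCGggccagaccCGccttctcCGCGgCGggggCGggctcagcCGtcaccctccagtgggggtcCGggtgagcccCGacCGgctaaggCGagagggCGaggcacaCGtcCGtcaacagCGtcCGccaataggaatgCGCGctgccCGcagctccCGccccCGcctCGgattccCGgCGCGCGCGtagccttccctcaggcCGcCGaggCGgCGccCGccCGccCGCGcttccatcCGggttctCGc
Malat1: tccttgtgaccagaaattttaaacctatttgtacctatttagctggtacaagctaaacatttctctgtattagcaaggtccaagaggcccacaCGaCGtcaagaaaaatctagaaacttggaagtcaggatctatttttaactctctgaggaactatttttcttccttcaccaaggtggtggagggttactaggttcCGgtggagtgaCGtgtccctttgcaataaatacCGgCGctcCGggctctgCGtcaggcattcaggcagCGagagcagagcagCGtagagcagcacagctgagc
These 300 bases held 28 CpG at Mir124a-1hg, 35 at Mir9-3hg and 40 at 6720427I07Rik, against 10 at Malat1.

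A peak was found at a minority of these promoters, and at most coding promoters. In control libraries 24.8% ± 1.99 (SD, n = 5) of members had a peak, and in cKO libraries 22.3% ± 3.16. Protein-coding windows had one in 59.2% ± 0.812 of cases in controls and 57.1% ± 3.00 in cKO. The difference averaged −34.6 percentage points and ran from −36.5 to −33.0 points as members minus coding in the 10 libraries (exact sign-flip permutation test over libraries, two-sided, with p and the p adjusted over 3 class contrasts both 0.00195, the smallest that 10 libraries allow). In lncRNA windows that overlapped a coding window the share was 71.3% ± 0.946 in controls. Among the 6621 members clear of coding transcript starts it was 22.5% ± 1.88 in controls.

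**Figure D1:**
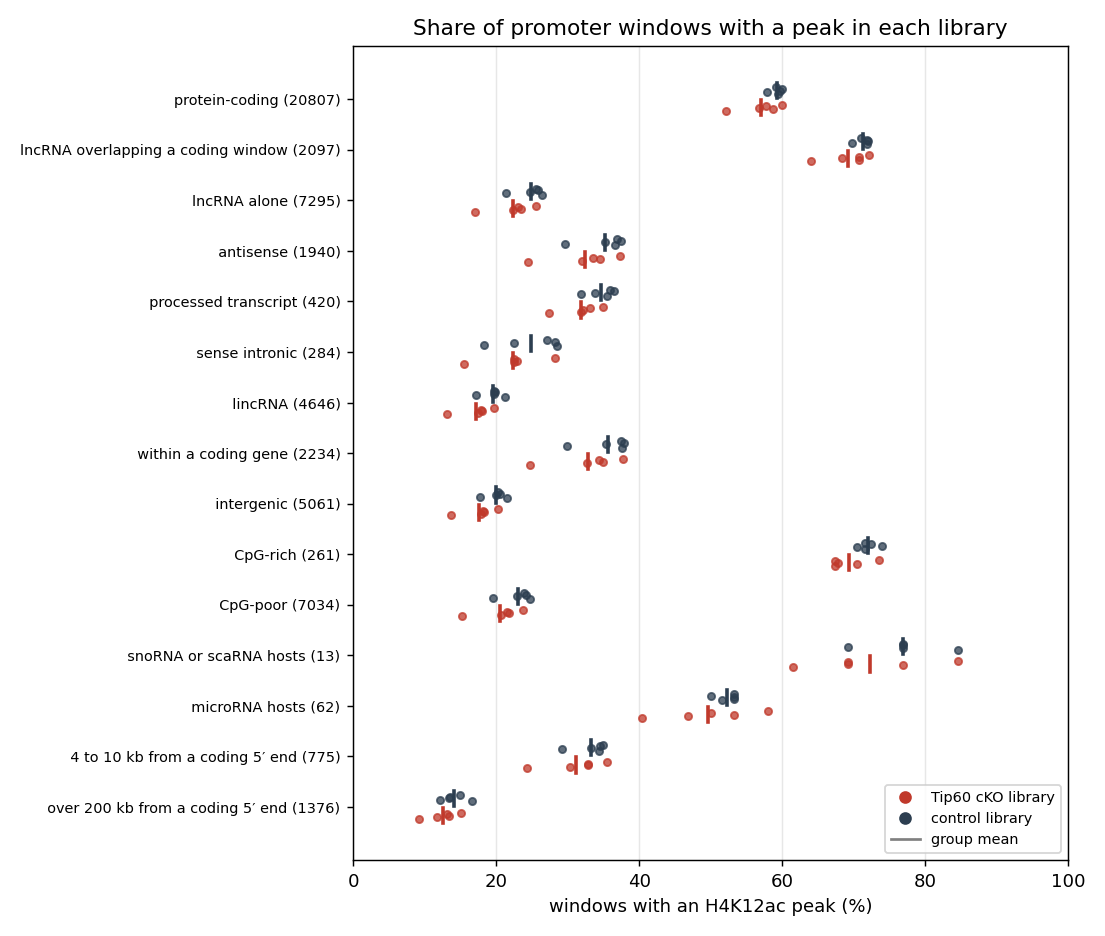
Percent of promoter windows with an H4K12ac peak (x axis) for classes of windows (y axis, number of windows in brackets). Points are single libraries, 5 Tip60 cKO in red and 5 control in dark blue, and vertical strokes are group means. In controls lncRNA promoters alone average 24.8% and coding promoters 59.2%, the spread between classes exceeds that between genotypes, and cKO replicate 5 is the lowest point in most classes.

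Members were also less uniform between libraries than coding windows were. No library held a peak at 4475 members (61.3%), all 10 held one at 842 (11.5%), and 1978 had a peak in 1 to 9 libraries. Among coding windows 6831 (32.8%) had none and 9607 (46.2%) had one in all 10.

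**Figure D2:**
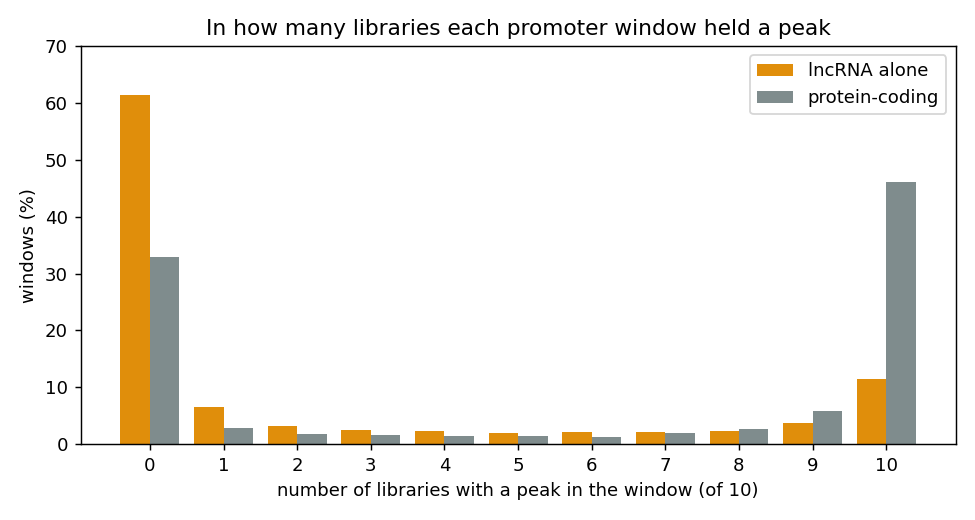
Percent of windows (y axis) with a peak in a given number of the 10 libraries (x axis), for lncRNA promoters alone (orange) and protein-coding promoters (grey). Most lncRNA promoters are in the bar at 0 libraries, at 61.3%, whereas the coding windows are highest at 10 libraries, at 46.2%.

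Peaks at members were weaker and lay farther from the 5′ end. The strongest peak of a window was ranked by fold enrichment as a percentile among all 51229 windows of its library (the rank score). It is 0 without a peak and starts between 62.84 and 69.96 with one, depending on the library. Where a peak was present its rank was 7.0 percentiles lower at members than at coding windows (difference −6.98, lower in 10 of 10 libraries, exact sign-flip permutation test, p = 0.00195). Its summit lay within 500 bp of the 5′ end at 42.5% ± 2.02 of members with a peak in controls, compared with 73.1% ± 0.623 of coding windows, and the difference of −30.9 points had the same sign in all 10 libraries (exact sign-flip permutation test, p = 0.00195). Averaged over windows, coverage by peaks was highest 200 bp downstream of the 5′ end in both classes. It reached 10.4% ± 1.18 at members and 46.2% ± 1.77 at coding windows in controls, against 3.38% ± 0.686 and 3.23% ± 0.590 at 10 kb upstream.

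**Figure D3:**
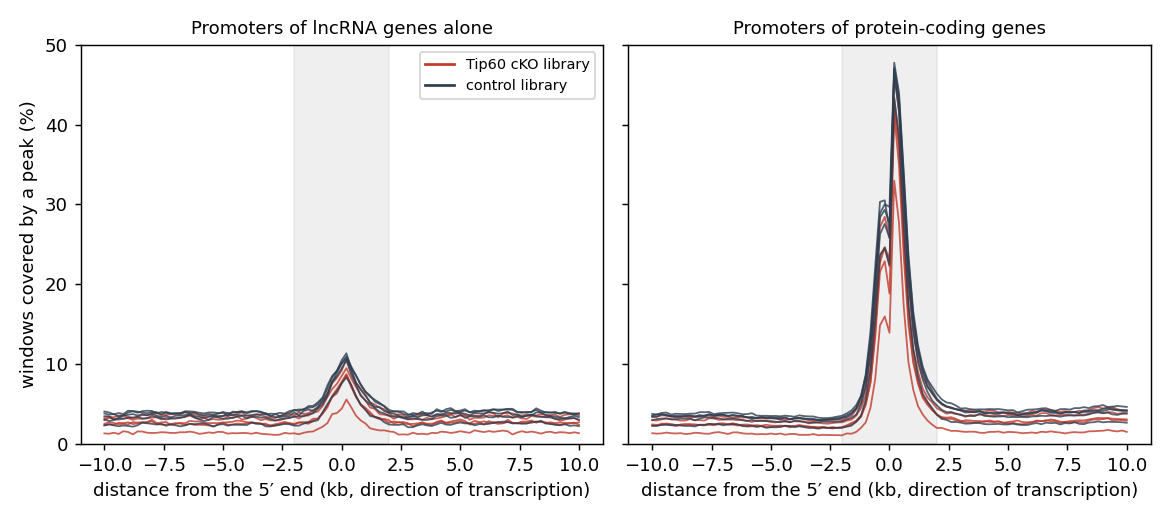
Percent of windows covered by a peak (y axis) against distance from the 5′ end in the direction of transcription (x axis, kb, bins of 0.2 kb) for lncRNA promoters alone (left) and coding promoters (right). Each line is 1 library, red for Tip60 cKO and dark blue for control, and the shaded band is the window of 2 kb on either side. Both classes rise to a maximum at 0.2 kb downstream, at a mean of 10.4% for lncRNA and 46.2% for coding promoters in controls, and the lowest line is cKO replicate 5.

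Base composition also differed between the classes. A window was called CpG-rich when the 500 bases on either side of the 5′ end had at least 50% GC and a CpG frequency of at least 0.6 of that expected from the base composition. Only 261 members (3.58%) were CpG-rich, compared with 45.7% of coding windows. CpG-rich members had a peak in 72.0% ± 1.27 of cases in controls and CpG-poor members in 23.0% ± 2.04, while CpG-rich coding windows reached 90.6% ± 0.612 and CpG-poor ones 32.8% ± 1.04. Within CpG-rich windows the gap to coding genes was −18.9 points, and within CpG-poor ones −9.87 points, each in all 10 libraries (exact sign-flip permutation test, p = 0.00195 for both). The difference in rank where a peak was present was −0.41 percentiles among CpG-rich windows, with single libraries between −1.37 and 0.40 (exact sign-flip permutation test, p = 0.0723), and −4.43 among CpG-poor windows, between −5.24 and −2.70 (exact sign-flip permutation test, p = 0.00195). The difference in summits within 500 bp was −4.84 points among CpG-rich and −15.6 among CpG-poor windows (exact sign-flip permutation test, p = 0.00195 for both), each smaller than the −30.9 points of the whole classes. Both splits were added after the values of the whole classes had been seen.

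Members with a peak in all 10 libraries differed in sequence and surroundings from those with none, as a description without a test. Of the former 17.7% were CpG-rich, and of the latter 1.07%. The nearest coding promoter held a peak in all 10 libraries for 64.3% of the former and 45.5% of the latter, at median distances of 36.3 and 66.5 kb. A window within 2 kb of some coding transcript's start, other than the gene's annotated 5′ end, was found for 197 of the 842 (23.4%) and for 225 of the 4475 (5.03%). On both strands of the 300 bases 5 short motifs were searched, none of which contains another. The GC box bound by SP1 (GGGCGG) was present in 27.7% of the members with a peak in all libraries, 6.21% of those with none and 23.6% of all gene starts. The cAMP response element (TGACGTCA) was in 2.02%, 0.715% and 1.31% respectively, and the printed Mir9-3hg promoter is among the 17 in the first group. The ETS motif (CCGGAAG) was in 5.94%, 3.11% and 6.11% and the E-box CACGTG in 8.43%, 4.83% and 5.51%. The TATA box (TATAAA) ran the other way, with 9.86%, 18.2% and 17.2%. A match describes these letters only and is not a bound site.

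Where a lncRNA gene lay and how it was typed went with the share marked. Antisense members, transcribed opposite to another gene, had a peak in 35.2% ± 3.21 of cases in controls and lincRNA members in 19.5% ± 1.45. Over all libraries the difference was 15.4 points and was positive in 10 of 10 (exact sign-flip permutation test, p = 0.00195, adjusted over 3 contrasts 0.00195). Members with their 5′ end inside a coding gene reached 35.7% ± 3.38, and intergenic members 20.004% ± 1.41 (difference over all libraries −15.4 points, 10 of 10 libraries, exact sign-flip permutation test, p = 0.00195). On the opposite strand of the surrounding gene the share was 36.9% ± 3.16, and on its own strand 30.1% ± 4.501. Processed transcripts had a peak in 34.7% ± 1.85 and sense intronic genes in 24.9% ± 4.41. The share fell with distance from the nearest coding 5′ end, from 33.3% ± 2.38 at 4 to 10 kb through 28.5% ± 2.54 at 10 to 50 kb and 24.1% ± 1.72 at 50 to 200 kb to 14.1% ± 1.72 beyond 200 kb. Peaks at 5′ ends inside coding genes cannot be told apart from acetylation of the surrounding gene. Of the 5 bidirectional genes, named because they are so few, Gm44140, Gm38560 and 4930519K11Rik had a peak in all 10 libraries, Gm48814 in 4 and Gm44577 in none.

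Promoters of lncRNA genes that host small RNAs were marked more often than the others. The 135 members whose gene body holds a microRNA, snoRNA or scaRNA gene on the same strand had a peak in 41.9% ± 1.24 of cases in controls, and the other 7160 in 24.5% ± 2.04. Over all libraries the difference was 16.6 points, positive in 10 of 10 (exact sign-flip permutation test, p = 0.00195, adjusted over 3 contrasts 0.00195). Hosts of a named microRNA reached 52.3% ± 1.44 of 62, of which 20 had a peak in all 10 libraries, and hosts of a named snoRNA or scaRNA 76.9% ± 5.44 of 13. Of these 13, 76.9% were CpG-rich, as were 19.4% of the microRNA hosts.

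Hosts of several microRNAs abundant in neurons had marked promoters. The mature sequences of 4 microRNAs whose hosts are described here are taken from RefSeq (GRCm38.p6), and show the seed (bases 2 to 8) in capitals.
mmu-miR-9-5p: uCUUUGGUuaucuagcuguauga
mmu-let-7a-5p: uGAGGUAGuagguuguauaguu
mmu-miR-137-3p: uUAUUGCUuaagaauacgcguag
mmu-miR-155-5p: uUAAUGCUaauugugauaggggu
The seeds of these 4 all differ. miR-9, a neural microRNA that restrains progenitor genes, is encoded at 3 loci, on chromosomes 3, 7 and 13, and the hosts Gm3764 (Mir9-1), Mir9-3hg and C130071C03Rik (Mir9-2) each had a peak in all 10 libraries. At C130071C03Rik (chr13:83721381-83884194, plus strand, intergenic) rank scores were 97.1, 99.5, 99.3, 92.0 and 97.4 in cKO and 99.5, 97.6, 88.2, 98.5 and 82.9 in control libraries. At Mir9-3hg (chr7:79500026-79534403, plus strand, intergenic) they were 81.6, 77.1, 81.2, 96.9 and 98.8 in cKO and 93.9, 95.0, 97.4, 94.3 and 97.9 in controls. cKO libraries 1, 2 and 3 were below every control at Mir9-3hg, cKO 4 and 5 were not, and the groups overlapped (limma difference −8.58 ± 3.48 SE, adjusted p = 0.310).

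miR-124, a microRNA abundant in neurons, has 2 hosts among the members. Mir124a-1hg (chr14:64587331-64593961, plus strand, intergenic) scored 96.5, 98.1, 99.3, 99.6 and 97.1 in cKO and 97.9, 85.8, 89.3, 95.6 and 97.6 in control libraries, and peaks covered 90.5% ± 9.85 and 86.1% ± 10.4 of its window. Mir124-2hg (chr3:17789921-17808970, plus strand) was weaker, with 69.4, 77.1, 72.5, 66.8 and 0 in cKO and 75.9, 71.2, 69.5, 68.1 and 75.6 in controls. The groups overlapped at both, and the 1 library without a peak at Mir124-2hg was cKO replicate 5. let-7, a family that rises with differentiation, has the hosts 6720427I07Rik, which holds let-7a-1, let-7d and let-7f-1, Lncppara, which holds let-7b and let-7c-2, and Mir99ahg, which holds let-7c-1, all with a peak in 10 of 10 libraries. The hosts of let-7a-2 departed from them, since 3110039I08Rik had no peak and Gm49317 had one in 4 cKO and 3 control libraries. Lncppara (chr15:85653616-85707524, plus strand) scored 99.7 or more in each cKO library and 93.7 to 98.4 in controls, so that the groups did not overlap, with a limma difference of 3.67 ± 1.46 SE and adjusted p = 0.287. Gm26871, the host of miR-137, scored 91.4, 89.0, 91.7, 92.0 and 86.2 in cKO and 96.4, 94.1, 99.0, 93.5 and 93.8 in controls, again without overlap, at a difference of −5.27 ± 2.34 SE (limma, adjusted p = 0.367). Hosts of Mir29b-2 (A330023F24Rik), Mir101a (E130102H24Rik) and Mir129-1 (Gm3294) had a peak in all 10 libraries. Mir670hg, which holds Mir129-2, and Gm20732, which holds Mir30d, had one in 3 cKO and all 5 control libraries. Gm4258, which holds Mir181a-1, had one in 4 cKO and 5 control libraries, and C78859, which holds Mir138-2, in 4 of each. Mir125b-1 lies in Gm28119, with a peak in all 10 libraries, and also in 3110039I08Rik and Gm49317, whose values are given above.

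Hosts of microRNAs best known from other tissues ranged from no peak to one in every library. Mir155hg and Mir142hg, the hosts of an immune and a haematopoietic microRNA, had a peak in 0 of 10 libraries. The host of the epithelial Mir205, 4631405K08Rik, had one in 2 libraries, and that of the hepatic Mir122, AC157910.3, in 2 cKO libraries and no control. Dnm3os, the host of Mir214, had one in 1 cKO library, and Gm15884, the host of the epithelial Mir200c, in 2 cKO and 1 control. AL805899.1, the host of Mir31, had one in all 10. Mir133a-1hg, which holds the muscle microRNAs Mir133a-1 and Mir1a-2, scored 0, 65.6, 66.7, 0 and 0 in cKO and 71.5, 81.6, 67.2, 75.6 and 80.8 in control libraries. Its groups did not overlap, yet the difference of −48.9 ± 19.1 SE missed the threshold (limma, adjusted p = 0.275).

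Gene lists of known lncRNAs were examined next, drawn up with earlier results of these data known. The microRNA host list had 10 members, of which 5 had a peak in all 10 libraries, 2 in none and 3 in between. Of 7 members among nuclear and widely expressed lncRNAs, 6 had a peak in all 10 libraries, namely Malat1, Neat1, Lncpint, Pvt1, Trp53cor1 and 2900097C17Rik. Malat1 (chr19:5795690-5802672, minus strand) scored 93.1, 95.1, 98.0, 96.8 and 95.9 in cKO and 97.8, 98.0, 97.1, 98.8 and 98.2 in control libraries. Neat1 (chr19:5824708-5845478, minus strand), the scaffold of paraspeckles, scored 90.8, 89.8, 97.8, 93.2 and 94.1 in cKO and 87.7, 82.4, 90.6, 91.2 and 96.7 in controls. The groups overlapped at both. Of 9 snoRNA hosts 8 had a peak in all libraries, all of them but Snhg5, which had one in 1 cKO and 1 control library. The 8 were Dancr, Snhg6, Snhg8, Snhg12, Snhg15, Snhg17, Snhg20 and Epb41l4aos, with mean control scores between 72.5 and 94.9.

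The neuronal and brain list was mixed. Of its 16 members, 4 had a peak in all libraries, 8 in none and 4 in between. Miat (chr5:112213228-112229395, minus strand), a nuclear RNA of neurons, scored 97.1, 92.0, 90.7, 84.6 and 95.4 in cKO and 86.6, 89.9, 92.4, 94.3 and 93.7 in controls, and the others of the 4 were C130071C03Rik, Gm26871 and Peg13. Without any peak were Dlx1as and Dlx6os1, which lie at the interneuron genes Dlx1 and Dlx6, and Six3os1, Sox2ot and Rmst, known from neural progenitors. A230006K03Rik, 2610307P16Rik and Snhg14 had none either. Windows were set at the outermost annotated 5′ end, and starts inside these genes were not examined. Of 13 members on the developmental and non-neural list 10 had no peak, among them Hotair and Halr1 of the Hox clusters and Platr3, Platr4, Platr10, Platr14 and Platr22 of embryonic stem cells. The exceptions with a peak in all 10 were Lncenc1 and Bvht, and 9630013A20Rik had 1 control library with a peak.

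Of 8 imprinted lncRNAs 4 had a peak in 1 to 9 libraries, the highest share of the 6 lists. Among all 7295 members 1978 did, and some imprinted genes are also on the neuronal and brain list. A list of 8 is too small to read this as a trait of imprinted lncRNAs. Peg13 alone had a peak throughout, H19, Nespas and Snhg14 had none, and Meg3, Kcnq1ot1, Airn and Mirg varied. Meg3 (chr12:109541001-109571726, plus strand), the maternally expressed RNA of the Dlk1-Dio3 locus, scored 71.0, 81.1, 76.4, 0 and 0 in cKO and 74.6, 68.8, 75.1, 77.5 and 79.4 in control libraries. Both libraries without a peak were cKO replicates 4 and 5, and the limma difference was −29.4 ± 16.9 SE (adjusted p = 0.483). Mirg, a microRNA cluster host of the same locus, had scores of 72.8 and 79.0 in cKO replicates 1 and 2 and 0 in the other 8 libraries. Across the 6 lists limma called no member in either direction, and at an unadjusted p under 0.05 it had 2 lower (Gm26871 and Mir9-3hg) and 3 higher (Mir124a-1hg, Snhg6 and Snhg17) of 35 distinct members tested. These are 5.71% and 8.57%, beside 7.3% and 5.51% of all windows.

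**Figure D4:**
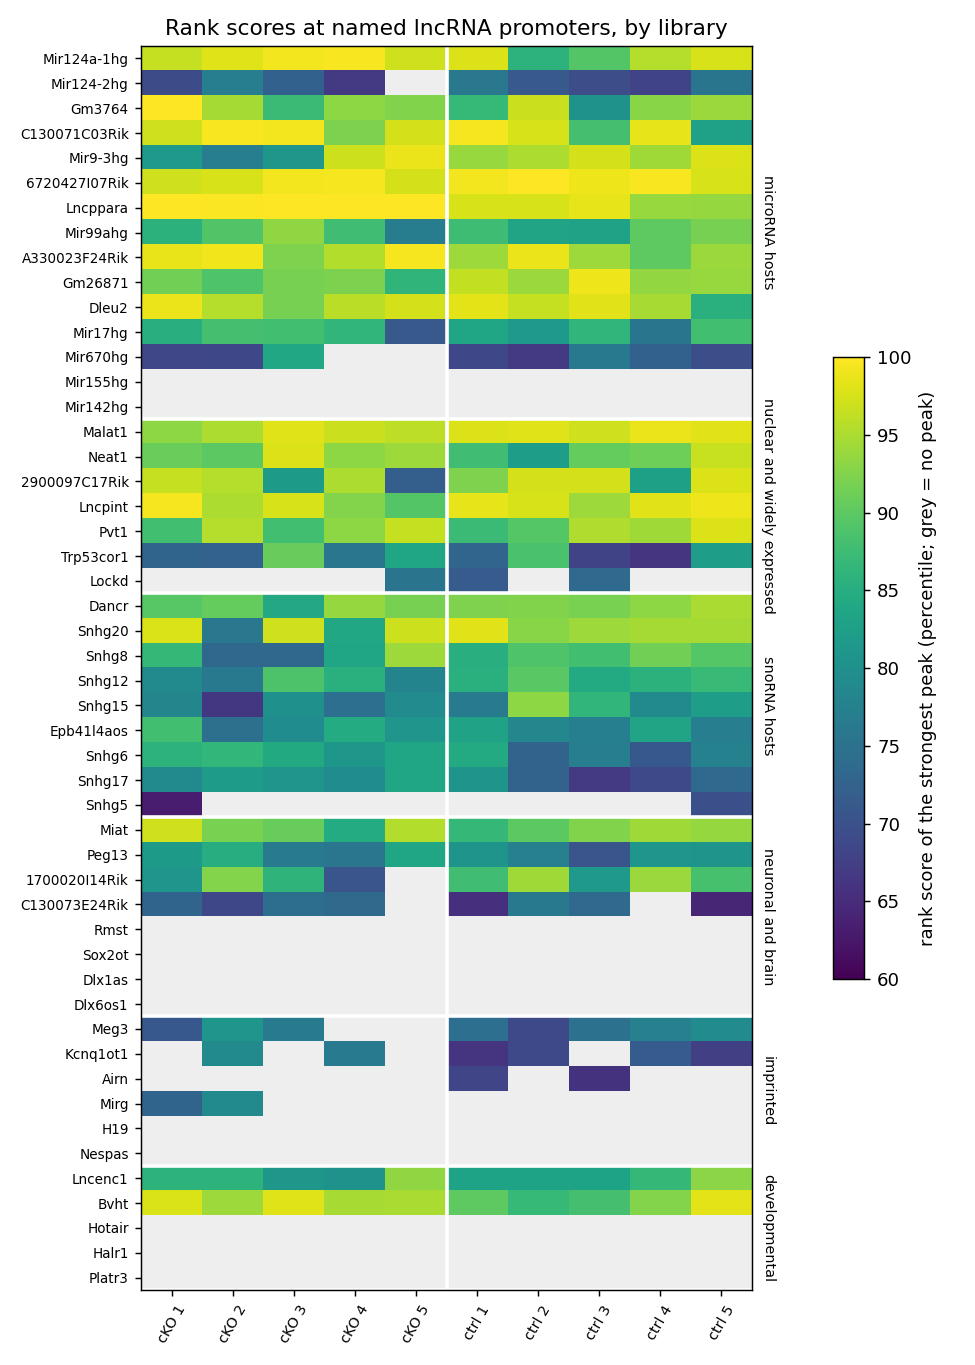
Rank score of the strongest peak (colour, percentile from 60 to 100, grey where there is no peak) at named lncRNA promoters (rows, grouped by list) in the 5 Tip60 cKO and 5 control libraries (columns). Coloured in every column are 11 of the 15 microRNA hosts drawn, 6 of 7 nuclear lncRNAs and 8 of 9 snoRNA hosts. The same holds for 2 of 8 neuronal and brain, 0 of 6 imprinted and 2 of 5 developmental lncRNAs drawn. Rows are a selection, with hosts from outside the microRNA host list added. Peg13, which is also imprinted, is drawn with the neuronal list. In the whole lists 5 of 10 microRNA hosts, 4 of 16 neuronal, 1 of 8 imprinted and 2 of 13 developmental members had a peak in every library. Mir155hg, Mir142hg, Rmst, Sox2ot, Dlx1as, Dlx6os1, Hotair and other rows are grey throughout, and Meg3 is grey in cKO 4 and cKO 5.

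The highest rank scores in controls were those of Gm34590, Gm14488, Gm48623, Ptpmt1, 2900072N19Rik, AC141471.6, 6720427I07Rik, AC141471.3, Gm26660 and Gm13330, with means from 98.8 to 99.9. Gm34590 (chr15:36938864-36949605, plus strand, intergenic, 68.9 kb from the 5′ end of Zfp706) led with 99.9 ± 0.0923 in controls and 98.9 ± 1.71 in cKO. Ptpmt1 carries the symbol of a mitochondrial phosphatase and is a member because this annotation types it as a processed transcript. Broad domains were found at Gm14488 (chr2:30713147-30720057, minus strand), Gm42838, AI849053, 4833428L15Rik and Gm27032, whose windows were covered to 89.1% to 92.4% by peaks in controls and 72.1% to 89.7% in cKO. AI849053 and Gm3764, the Mir9-1 host, have 5′ ends 2.2 kb apart on opposite strands and share peaks. The windows of Gm13330, Gm42838 and 4833428L15Rik lay within 2 kb of a coding transcript start.

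The second question was whether loss of Tip60 changed the mark at these promoters. Shares in single libraries were 25.6%, 23.1%, 23.4%, 22.4% and 17.1% in cKO and 25.6%, 25.8%, 24.7%, 21.4% and 26.4% in controls. Replicate 5 was the lowest cKO library and replicate 4 the lowest control, and the groups overlapped. The difference of −2.47 points did not exceed the spread between libraries (two-sided exact permutation test, p = 0.175, which became 0.370 when adjusted for 5 measures). Peaks covered 4.65% ± 1.27 of the member windows in cKO and 5.95% ± 0.914 in controls (difference −1.30 points, exact permutation test, p = 0.0952, adjusted 0.370). The mean rank score, windows without a peak included, was 17.4 ± 2.02 and 18.8 ± 1.31 (exact permutation test, p = 0.222, adjusted 0.370). Within the libraries of lane 7 (3 per genotype) the share differed by −1.34 points and coverage by −0.84 points, and within lane 8 (2 per genotype) by −4.17 and −1.99 points, where exact tests cannot go below p of 0.1 and 0.333.

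Measures relative to the rest of each library were compared next. Members held 2.82% ± 0.203 of all peaks in cKO and 2.80% ± 0.115 in controls (exact permutation test, p = 0.810, adjusted 0.810). Their coverage was 0.350 ± 0.0325 of that of coding windows in cKO and 0.357 ± 0.0225 in controls (exact permutation test, p = 0.738, adjusted 0.810). Coding windows had a lower coverage in cKO as well, 13.1% ± 2.72 against 16.6% ± 1.64 (exact permutation test, p = 0.0397). In lists cut to the 64245 peaks with the lowest p, shares were 17.1% ± 0.215 in cKO and 17.9% ± 0.216 in controls, without overlap, a difference of −0.839 points (exact permutation test, p = 0.00794, the smallest possible, adjusted 0.0198). Coding windows differed by −1.56 points in the same lists (exact permutation test, p = 0.0556). Coverage in these lists differed by −0.838 points at members (−18.5% of the control value, exact permutation test, p = 0.0397, adjusted 0.0661) and by −3.07 points at coding windows (−20.8%, exact permutation test, p = 0.0159). The mean rank score of members was also lower in cKO in these lists (exact permutation test, p = 0.00794, adjusted 0.0198). The lists also differed in background, since 53.0% to 59.0% of peaks in cKO lists and 28.7% to 35.7% in control lists were scored against the genome-wide background level, with the others against a higher local input. Its part in these results was not tested.

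At single promoters 2337 members with a peak in at least 2 libraries could be compared. limma called 1 member lower and 4 higher in cKO at an adjusted p below 0.05. Over all 21285 windows tested it called 0.113% lower and 0.272% higher, and among members 0.0428% and 0.171%. Plain eBayes, which is limma without its trend and robust options, called 6 members lower and 2 higher, 0.257% and 0.0856% of those tested, where all windows gave 0.141% and 0.0799%. All of these 6 and 1 of these 2 had a peak in every library of one genotype and in none of the other. They entered the comparison only through the genotype with the peaks, so nothing is read from their number. At an unadjusted p below 0.05, 158 members were lower and 120 higher, 6.76% and 5.13% of those tested, compared with the same 7.3% and 5.51% of all windows. The median difference was −0.74 percentiles over members and −0.70 over all windows tested.

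The promoters of 3 of the called members are printed to show their sequence. AC122818.1 was lower in cKO, and Gm16958 and 1700021N21Rik were higher. Their coordinates are chr17:87530695-87530994 on the minus strand, chr3:127161054-127161353 on the plus strand and chr4:134450122-134450421 on the minus strand, in the same form as above, with capitals for CpG.
AC122818.1: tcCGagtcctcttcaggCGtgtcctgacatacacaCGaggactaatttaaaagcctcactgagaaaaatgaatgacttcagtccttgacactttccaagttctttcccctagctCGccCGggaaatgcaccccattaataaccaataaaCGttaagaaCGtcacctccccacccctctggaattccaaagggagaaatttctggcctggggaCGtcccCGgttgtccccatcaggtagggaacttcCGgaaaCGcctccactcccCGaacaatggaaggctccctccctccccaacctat
Gm16958: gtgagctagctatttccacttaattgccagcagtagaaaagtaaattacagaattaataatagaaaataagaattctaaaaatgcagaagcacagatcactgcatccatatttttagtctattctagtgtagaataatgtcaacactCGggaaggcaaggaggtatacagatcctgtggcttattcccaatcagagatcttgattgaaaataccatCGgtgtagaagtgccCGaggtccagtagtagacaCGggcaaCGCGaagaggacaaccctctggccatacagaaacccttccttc
1700021N21Rik: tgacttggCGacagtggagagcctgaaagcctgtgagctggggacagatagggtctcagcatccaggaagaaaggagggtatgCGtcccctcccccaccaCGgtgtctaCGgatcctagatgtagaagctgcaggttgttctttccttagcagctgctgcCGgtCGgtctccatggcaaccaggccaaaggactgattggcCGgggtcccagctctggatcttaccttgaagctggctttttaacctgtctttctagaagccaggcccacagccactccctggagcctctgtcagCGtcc
They held 12, 6 and 8 CpG, and of the 5 motifs only the ETS letters were found, at AC122818.1.

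AC122818.1 (chr17:87529503-87530744, minus strand) is an intergenic lincRNA of 2 exons, 83.8 kb from the 5′ end of Calm2, a calmodulin gene. It scored 82.9, 87.5, 81.2, 85.7 and 84.6 in cKO and 98.3, 98.1, 97.0, 93.2 and 99.9 in control libraries. All cKO values were below all control values, although every library had a peak there. The difference was −12.9 ± 2.68 SE (limma, adjusted p = 0.0289). With single libraries left out, the call held only without cKO replicate 3 or 5 or control replicate 4. The limma adjusted p was 0.0533 to 0.0981 without any of the other 7. The call was also lost with replicate number as a block and with plain eBayes. Local background within 50 kb, relative to the genome-wide level, was 1.03 ± 0.0346 in cKO and 1.13 ± 0.0601 in controls, and its part in the difference was not tested.

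Gm16958 (chr3:127161304-127168288, plus strand) is an antisense gene inside Ank2, which encodes the membrane adaptor ankyrin-B. It scored 93.8, 87.5, 89.9, 86.9 and 91.3 in cKO and 75.3, 70.8, 68.3, 67.7 and 67.0 in controls. The cKO values were all higher, with a difference of 20.1 ± 3.34 SE (limma, adjusted p = 0.00826), and the call held without any single library. Its window lies within 2 kb of a coding transcript start. Local background was 1.09 ± 0.0329 in cKO and 1.39 ± 0.0929 in controls, and its part in the difference was not tested.

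1700021N21Rik (chr4:134448766-134450171, minus strand) is typed antisense and has its 5′ end 18.1 kb from that of Stmn1, the microtubule regulator stathmin. It scored 98.6, 97.6, 98.2, 93.2 and 99.3 in cKO and 85.7, 79.5, 87.1, 80.3 and 75.7 in controls, a difference of 15.7 ± 3.02 SE (limma, adjusted p = 0.0225). Gm27252 (chr7:63896533-63899698, plus strand), a processed transcript opposite to a coding gene, scored 99.1, 98.6, 96.5, 96.9 and 99.8 in cKO and 76.6, 89.8, 80.6, 86.9 and 85.9 in controls, a difference of 14.3 ± 2.83 SE (limma, adjusted p = 0.0225). Gm10425 (chr12:111426874-111430946, minus strand), an antisense gene, scored 87.9, 94.7, 93.8, 95.8 and 92.5 in cKO and 72.4, 82.1, 68.3, 83.7 and 80.2 in controls, a difference of 15.6 ± 3.56 SE (limma, adjusted p = 0.0444). Its window too lies within 2 kb of a coding transcript start. The groups did not overlap at any of the 3. The call was lost at 1700021N21Rik without cKO replicate 1 or 2, at Gm27252 without cKO replicate 1, 2, 4 or 5 or control replicate 3, and at Gm10425 without any library but control replicate 4. With replicate number as a block, and with plain eBayes, the call was lost at all 3. Their local background was 1.07 ± 0.0285, 1.004 ± 0.00813 and 1.04 ± 0.0908 in cKO and 1.27 ± 0.0425, 1.14 ± 0.0347 and 1.03 ± 0.0432 in controls, in the order given. When peaks were ranked by pileup instead of fold enrichment, no member was called in either direction (limma, 135 lower and 86 higher at an unadjusted p below 0.05, 5.78% and 3.68% of those tested beside 5.45% and 3.58% of all windows). The differences then shrank to −2.71 at AC122818.1, 3.60 at Gm16958, 0.78 at 1700021N21Rik, 5.25 at Gm27252 and 3.53 at Gm10425, the same signs with adjusted p from 0.415 to 0.889 in limma.

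**Figure D5:**
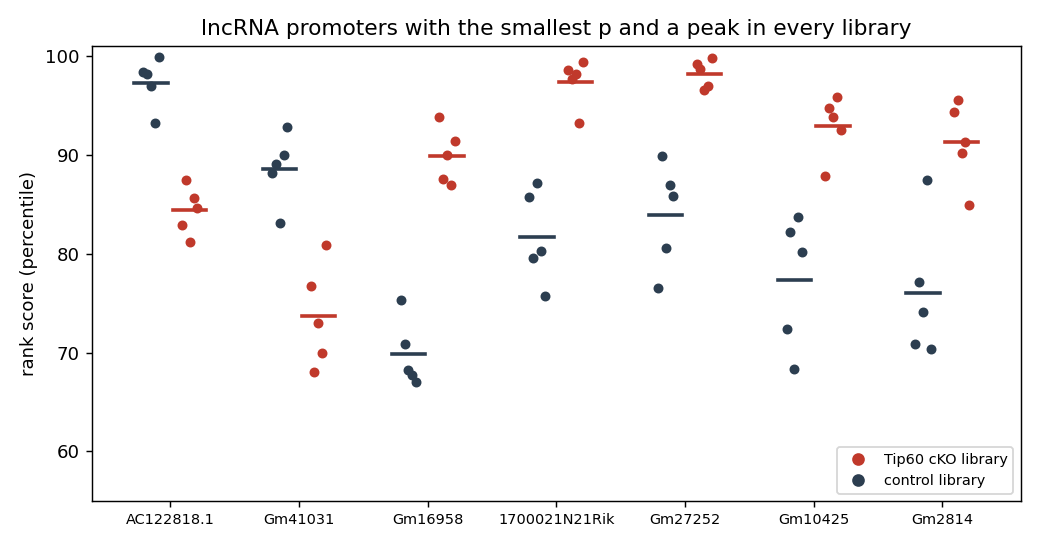
Rank scores (y axis, percentile) of the members with the smallest p among those with a peak in every library (x axis). Points are libraries, red for Tip60 cKO and dark blue for control, and strokes are group means. AC122818.1 and Gm41031 are lower in cKO and the other 5 higher, and the groups overlap only at Gm2814.

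The next members by p missed the threshold. Lower in cKO were Gm41031, with 76.7, 68.0, 73.0, 69.9 and 80.9 against 88.1, 89.1, 83.1, 90.0 and 92.8 in controls and no overlap (limma, adjusted p = 0.0515), and Gm12868, Gm44738 and Gm33337. The last 3 had no peak in any cKO library and one in every control, with control means of 71.8 ± 2.27, 71.1 ± 5.70 and 68.9 ± 2.15. They were compared at all only through the controls, since a peak in 2 libraries was required, so these are values without a test. Higher in cKO was Gm2814, at 94.4, 95.5, 90.1, 91.3 and 84.9 against 70.9, 77.1, 74.1, 87.4 and 70.3 (limma, adjusted p = 0.0595). In all, 6 members had a peak in 5 control and 0 cKO libraries, 0.257% of those tested, where all windows gave 0.122%. The reverse was seen at 1 member, AC154492.2, which was chosen after its values were seen and lies inside a coding gene 7.29 kb from the 5′ end of Rhoq, where all windows gave 0.0235%. With a looser rule of 4 or more libraries' difference, 40 members were marked more often in controls and 10 in cKO, 1.71% and 0.428% of those tested, compared with 0.86% and 0.291% of all windows. Windows counted by either rule passed the filter mainly or only through the genotype with the peaks, so nothing is read from these shares. Scores near 70 lie close to the lowest that a peak can have, so these promoters carried weak peaks in the genotype that had them.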

How the data were processed

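Fixed neuronal nuclei were sorted by FACS from whole hippocampi and H4K12ac ChIP-Seq libraries were sequenced. Reads were mapped to mm10 with STAR and duplicates removed with samtools by the authors. Per the file headers, MACS 2.1.0.20140616 called peaks in each library against its genotype's pooled input with an effective genome size of 1.87e+09, at q below 0.1. The deposited lists give pileup signal, −log10 p and q values, and fold enrichment, which is a ratio to the local or genome-wide background. No counts per region were used.

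Windows came from GENCODE M21 gene 5′ ends (1 base of overlap counted). Rank scores and coverage were computed with Python 3.11.15, numpy 2.4.6 and pandas 2.3.3. Genotypes were compared by exact permutation (252 assignments, smallest p 0.00794), classes by exact sign flips over 10 libraries (1024, smallest p 0.00195), and single windows with limma 3.58.1 in R 4.3.3 (trend and robust), adjusted over all 21285 windows. These were tested on simulated data. Named members were those limma called (or the 5 smallest p per direction), the 10 highest scores, the 5 highest coverages in controls, list members and small RNA hosts. Members and lists were chosen with earlier results of these data known. Same-numbered libraries deviated with correlations of −0.0350 to 0.0532, none above the limit of 0.1 set for pairing. Numbers were therefore not used as pairs, although low correlations cannot exclude pairing. Libraries 1 to 3 of each genotype were from lane 7 and 4 and 5 from lane 8, as written in the file names.

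Alternatives were stricter peaks (q below 0.01), equal list lengths, narrower windows, summits in the window, merged windows, members clear of coding transcript starts, pileup ranking, other limma settings and each library left out.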

Additional observations from a re-analysis of the deposited data

Results flagged for a closer look

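Within each genotype, the 5 rank scores of every named member and the 5 values of each summary were examined for 1 library that lay far from the other 4 (Dixon's criterion at the 95% level), and 44 groups (17.5%) met it. A score is 0 without a peak and far above 0 with one, so the 29 groups in which 1 library differed from the other 4 in having a peak met it through the scale of the score, and no chance rate applies to them. Among the 156 groups with no value of 0, 15 met it. The criterion's rate of about 1 in 20 assumes normal values. Rank scores are bounded percentiles of members partly chosen for high scores, so no excess is read from the 15. In 12 of the 44 the odd library was cKO replicate 5, the one with the fewest peaks. It had a score of 0 at 1700020I14Rik (others 70.6 to 92.5), Mir124-2hg (66.8 to 77.1), C130073E24Rik (68.6 to 74.4), Gm4258 (65.6 to 86.3), Gm49317 (65.9 to 68.6), AA465934 (68.5 to 79.5) and AC113104.3 (66.8 to 81.1), and 71.2 at Mir17hg (85.1 to 88.2). It had 95.9 at Gm34590 (99.6 to 99.8) and at AI849053 (99.0 to 99.9). It was high at Gm28373 (83.5, others 67.6 to 69.6), and at Lockd it was the only cKO library with a peak, at 75.4.

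Other single libraries with a peak where the 4 of their genotype had none were cKO replicate 1 at Snhg5 (63.0), Mirt1 (65.9), Dnm3os (64.1), 4631405K08Rik (63.96) and Tmcc3os (66.9) and cKO replicate 4 at 6030407O03Rik (68.2). Among controls they were replicate 1 at Gm29069 (67.6), 4631405K08Rik (69.9) and Gm6145 (65.3), replicate 2 at 9630013A20Rik (65.1) and Gm15884 (68.8), replicate 4 at D030055H07Rik (66.5) and replicate 5 at Snhg5 (69.7). Other single libraries without a peak, at a score of 0 where 4 had one, were cKO replicate 2 at AI506816 (66.5 to 75.4) and C78859 (68.3 to 74.5), cKO replicate 4 at Gm16863 (64.6 to 72.5), control replicate 3 at Kcnq1ot1 (66.1 to 71.7) and AA465934 (70.3 to 76.6), control replicate 4 at C130073E24Rik (64.3 to 76.2) and C78859 (66.7 to 77.5), and control replicate 5 at Tmcc3os (64.7 to 70.7).

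The remaining groups held peaks in all 5 libraries. cKO replicate 2 was low at 2900072N19Rik (87.3, others 95.8 to 98.7), AC141471.6 (87.5, others 97.7 to 99.9) and Gm27032 (95.9, others 98.9 to 99.4). cKO replicate 4 was low at 1700021N21Rik (93.2, others 97.6 to 99.3) and high at 2700038G22Rik (87.8, others 69.4 to 73.6). Low control values were those of replicate 2 at Gm27032 (92.1, others 98.6 to 99.2) and Gm4258 (63.7, others 71.5 to 72.7), replicate 3 at Lncpint (94.2, others 97.6 to 99.0), replicate 1 at Gm48623 (98.4, others from 99.7) and replicate 5 at Dleu2 (85.4, others 94.8 to 98.3). Control replicate 4 was high at AI506816 (79.2, others 64.1 to 68.3). The causes of these departures were not tested.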

How the results depend on the processing

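The contrasts between classes of windows kept their direction and their call under every alternative run for them, apart from 1 named below. Leaving out each library gave −34.8 to −34.4 points for members against coding windows, −7.33 to −6.83 percentiles for rank, −31.3 to −30.4 points for summit position, −15.9 to −15.2 for intergenic members, 15.2 to 15.9 for antisense members and 16.005 to 16.9 for small RNA hosts. Among CpG-rich windows alone, a split added after the data were seen, the rank difference was −0.41 and no longer passed. For genotype, equal list lengths gave −0.839 points for the share, −0.838 for coverage and −0.43 for the rank score, all with an unadjusted p below 0.05 (adjusted over the 5 measures 0.0198, 0.0661 and 0.0198, exact permutation tests), turned the share of peaks to −0.0697 and the coverage ratio to 0.00837, and within lane 7 these last measures were −0.0574 and 0.00857, none past it. With single libraries left out the share ranged from −3.32 to −1.16 (unadjusted exact permutation p below 0.05 without control replicate 4), coverage from −1.67 to −0.80 (likewise without control replicate 4 or cKO replicate 1), the rank score from −2.02 to −0.63, the share of peaks from −0.0557 to 0.0752 (negative without cKO replicate 5 or control replicate 2) and the coverage ratio from −0.0160 to 0.00634 (positive without cKO replicate 5).

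Counts of called members, 1 lower and 4 higher, moved with most settings. They were 0 and 0 when ranked by pileup (0 and 1 over all windows), 0 and 1 with the replicate block (1 and 5), 6 and 2 with plain eBayes (30 and 17), 2 and 5 in windows of 1 kb (36 and 72), 2 and 4 with lane as a term (28 and 64) or a peak in at least 5 libraries (26 and 64), and 1 and 2 among members clear of coding transcript starts (24 and 58). With plain eBayes the 6 lower and 1 of the 2 higher had peaks in one genotype only. Among members called in the main setting, only Gm16958 kept its call with plain eBayes and with the replicate block. Leaving out single libraries gave 0 to 3 lower and 1 to 6 higher (2 to 29 and 6 to 53 over all windows). Requiring a peak in 4 or more extra libraries of a genotype gave 40 lower and 10 higher (183 and 62 over all windows). These are 1.71% and 0.428% of members tested, beside 0.86% and 0.291% of all windows. Such windows passed the filter mainly or only through the genotype with the peaks, so nothing is read from these shares. As a hint from the data only, 3 of 5 cKO libraries correlated best with the control of their own number, and with the replicate block the share differed by −2.47 points (exact sign-flip permutation over 5 pairs, p = 0.25, smallest possible 0.0625). The causes of these shifts were not tested. Peak lists hold no depth at windows without a peak, so absence means only that none was called at this depth.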
